A study of Mus musculus with 6 samples.

Results

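The miRNAs described here are grouped as reaching their mature form without cleavage by Drosha, which was not tested here. They were chosen by number from a table of mature miRNA counts. miR-320 and miR-484 were taken as miRNAs of capped precursors, and miR-877, miR-1224, miR-702 and miR-1981 as mirtrons. Every listed arm was used, which gave 11 of the 1963 distinct mouse sequences, 3 from capped precursors and 8 from mirtrons, on 6 hairpins. The rule used names only, and no count, but it was set with earlier results of these data known.

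Liver RNA was sequenced after injection of mice with AAV9, an adeno-associated virus used to deliver genes. All animals received Cre recombinase driven by the cardiac troponin T (Tnnt2) promoter, a heart muscle promoter. In the Cre-miR122 group (AAV-Tnnt2-Cre-miR122; 3 libraries, replicates 1, 2 and 4) the vector also had an element bearing the name of miR-122, and in the Cre group (AAV-Tnnt2-Cre; 3 libraries, replicates 10, 11 and 12) it did not. The labels read here give no strain, age or time after injection. Only Cre-miR122 replicate 2 was analysed, the remaining 5 being not analysed here, so each value stands for 1 library and the groups could not be compared.

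Most miRNAs are cut from a long primary transcript in the nucleus by Drosha with its partner DGCR8, and the resulting hairpin is cut in the cytoplasm by Dicer. A mirtron is a short intron that folds into such a hairpin once it has been spliced out and debranched, so that splicing takes the place of Drosha. In a capped precursor the hairpin begins where transcription begins and carries the cap of the transcript at its 5′ end. For miR-320 that cap hinders loading of the 5p arm into Argonaute, and the 3p arm is the one that accumulates.

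The sequences that held reads in this library are given first, as deposited, 5′ to 3′ in DNA letters, with the seed (bases 2 to 8, which pair with target mRNAs) in capitals. The prefix mmu marks the mouse entries and is mostly left out.
mmu-miR-320-3p: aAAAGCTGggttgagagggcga
mmu-miR-484: tCAGGCTCagtcccctcccgat
mmu-miR-1981-5p: gTAAAGGCtgggcttagacgtggc
mmu-miR-1981-3p: cATCTAACcctggcctttgac
mmu-miR-877-3p: tGTCCTCTtctccctcctccca
The 5 sequences have different seeds. In 9 of the 11 members the seed occurred in no other mouse sequence, against 1344 of all 1963 mouse sequences (68.5%). The exceptions are miR-1981-5p, which shares its seed with miR-1971, and miR-702-5p, which shares it with miR-3102-5p. Neither miR-1971 nor miR-3102-5p had a read. Among mouse entries, the seeds of the 5 members with reads were thus read through those members alone.

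RefSeq (GRCm38.p6) lists 9 of the 11 members, each with the same sequence and place as found here. The mirtron hairpins are printed from RefSeq in RNA letters, with the annotated arms in capitals, because their ends can be read against the ends of the intron.
Mir1981, chr1:184822407-184822488, minus strand: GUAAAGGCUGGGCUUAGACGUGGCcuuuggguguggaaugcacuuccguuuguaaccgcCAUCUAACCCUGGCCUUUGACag
Mir877, chr17:35960730-35960814, minus strand: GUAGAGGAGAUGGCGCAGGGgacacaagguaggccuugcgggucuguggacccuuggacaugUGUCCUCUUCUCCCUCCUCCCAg
Mir1224, chr16:20604452-20604536, plus strand: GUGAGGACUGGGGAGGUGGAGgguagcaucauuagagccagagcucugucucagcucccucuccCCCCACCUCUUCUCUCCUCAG
Mir702, chr5:136991433-136991541, plus strand: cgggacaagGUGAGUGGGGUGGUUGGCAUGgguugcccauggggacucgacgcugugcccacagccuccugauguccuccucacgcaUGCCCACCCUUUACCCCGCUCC
On the GENCODE M21 annotation of the mm10 (GRCm38) build, 3 of these hairpins are identical to an annotated intron. Mir1981 fills the 82 nt of an intron of Marc2, which encodes a molybdenum enzyme of the mitochondrial outer membrane. Mir877 fills an 85-nt intron of Abcf1, whose ATP-binding protein acts in translation initiation, and Mir1224 an 85-nt intron of Vwa5b2. Mir702 lies on a 102-nt intron of Plod3, a lysyl hydroxylase that modifies collagen. Its annotated hairpin begins 9 nt before the intron, in the exon, and stops 2 nt before the intron's end. On this annotation Mir702 is thus not identical to its intron, unlike the other 3.

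**Figure D1:**
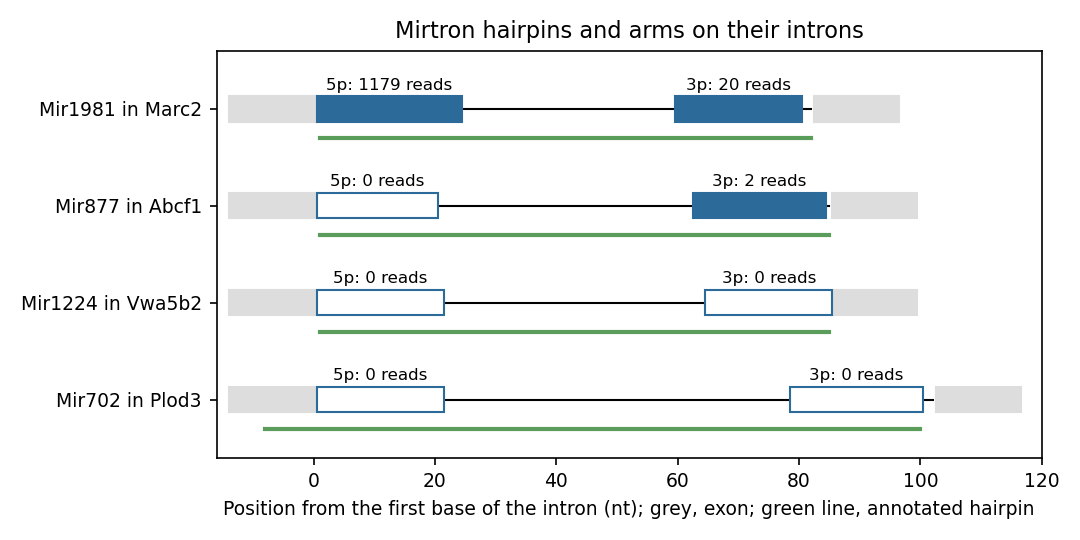
Each mirtron is drawn to scale along its intron, with positions in nt from the intron's first base on the x axis, the adjoining edges of the flanking exons in grey, the annotated hairpin as a green line and the annotated arms as boxes, filled where reads were counted. Every 5p box begins at the first base of the intron, and reads were counted for 1179 and 20 of miR-1981 (5p and 3p) and 2 of miR-877-3p.

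All 4 mirtron 5p arms begin with the first base of the intron and hence with GT (GU in RNA), the letters of a 5′ splice site. A start with GT was found in 45 of all 817 mouse 5p sequences (5.51%) and in 8 of the 262 with reads (3.05%). The 3p arms stop at different distances from the intron's end. miR-1224-3p includes the final AG, miR-877-3p stops 1 nt short of the end of its hairpin, and miR-1981-3p stops 2 nt short of it. An AG at the end was thus found in 1 of 4 mirtron 3p arms, against 221 of 823 mouse 3p sequences (26.9%). With only 4 arms this share says little about mirtrons in general. On the wider list of intron-ending hairpins given below, which includes 3 of these 4 hairpins, 14 of 21 3p sequences end with AG.

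The capped-precursor hairpins overlap no annotated exon or intron on their own strand. Mir320 (ENSMUSG00000065528.1) lies on chromosome 14, plus strand, from 70443510 to 70443591. Its 5′ end is 63 nt from the nearest annotated start of Polr3d, an RNA polymerase III subunit gene on the opposite strand, and 13966 nt from the nearest start on its own strand, that of Phyhip. Mir484 (ENSMUSG00000070074.1) lies on chromosome 16, plus strand, from 14159626 to 14159692, 359 nt from a start of Marf1 on the opposite strand and inside that gene. Its nearest annotated start on its own strand, that of Nde1, is 3649 nt away. This annotation thus marks no start of a longer transcript at either hairpin. miR-320-3p occupies bases 48 to 69 of an 82-nt hairpin, on the 3′ side, and miR-484 occupies bases 5 to 26 of a 67-nt hairpin, on the 5′ side.

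The library held 6661069 reads on mouse sequences, 81.6% of the 8163802 reads over all distinct sequences of the table. It carried the 3 miRNAs taken as hepatocyte markers, which summed to 62.5% of mouse reads. Most of that sum was miR-148a-3p at 57.9%, with miR-122-5p at 3.54% and miR-192-5p at 1.08% of mouse reads. It also carried striated muscle miRNAs, at 15.8% over 5 markers, mainly miR-1a-3p with 980271 reads or 14.7%, more than miR-122-5p. miR-206-3p had 68854 reads, miR-133a-3p had 915, miR-499-5p had 251 and miR-208a-3p had 0. The 2 mesenchymal markers summed to 2.07% and the 1 endothelial marker held 0.891%. Red cell markers (2) summed to 0.00462% and leukocyte markers (3) to 0.00303%. Whether any member came from muscle, blood or liver cells was not tested, and in bulk RNA more cells of a type and more of a miRNA per cell cannot be told apart.

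Reads were found for 5 of the 11 members, against 27.8% of all mouse sequences. The member with the highest count was mmu-miR-1981-5p, with 1179 reads or 0.0177% of mouse reads (exact Clopper-Pearson 95% interval 0.0167 to 0.0187). mmu-miR-320-3p had 145 reads, 0.00218% (0.00184 to 0.00256), and mmu-miR-484 also had 145. The equal counts belong to unrelated sequences on different chromosomes. miR-1981-3p followed with 20 reads, 3.0e-04% (1.83e-04 to 4.64e-04), and mmu-miR-877-3p with 2, 3.0e-05% (3.64e-06 to 1.08e-04). All intervals cover the counting error of reads only, and reads were not collapsed to molecules.

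In order of reads, miR-1981-5p lay above miR-320-3p and miR-484, these lay above miR-1981-3p, and miR-1981-3p above miR-877-3p, each step with intervals that do not overlap. miR-320-3p and miR-484 were not separated, with a ratio of 1 (0.789 to 1.27). mmu-miR-320-5p, both arms of miR-1224, both arms of miR-702 and mmu-miR-877-5p had 0 reads. For these arms a limit of 3 reads corresponds to 4.5e-05% of mouse reads, and the exact 95% interval reaches 5.54e-05%. The interval of miR-877-3p includes both values. The low end of the list was therefore not resolved at this depth. At 10 reads or more, 4 members remained, against 15.4% of all mouse sequences.

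**Figure D2:**
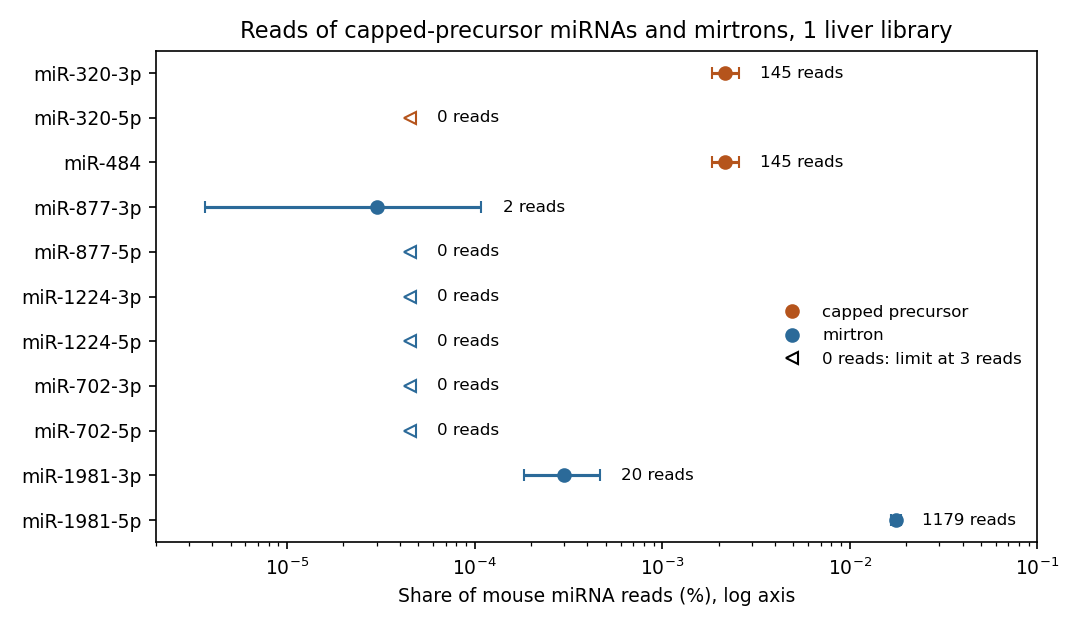
The x axis gives the share of mouse miRNA reads in percent on a log scale for each arm, with exact 95% intervals as bars and open triangles at the limit of 3 reads for arms with 0 reads. miR-1981-5p stands at 0.0177%, above miR-320-3p and miR-484, which coincide at 0.00218%.

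Among the 546 mouse sequences with reads, whose median was 18 reads, miR-1981-5p ranked 68 and had more reads than 87.5% of them. Its nearest neighbours were miR-98-5p with 1287 reads and miR-337-5p with 1212 above it, and miR-101a-3p with 1167 and miR-126a-5p with 1152 below it. miR-320-3p and miR-484 shared rank 150, between miR-450a-5p with 149 reads and miR-27a-3p with 137. miR-1981-3p ranked 260 and had more reads than 51.1% of the detected sequences, and miR-877-3p ranked 399 and had more than 17.8%. The 5 members with reads were thus spread from the upper to the low part of the detected range, and the other 6 had no read. miR-1981-5p had 1179 reads against 236027 of miR-122-5p, the main miRNA of hepatocytes, which is 200.2-fold higher (189 to 212). Relative to miR-320-3p, with its 145 reads, miR-122-5p was 1628-fold higher (1383 to 1929). The vector given to this animal had an element bearing the name of miR-122, and its effect on miR-122-5p was not tested. miR-1981-5p lay above, and miR-320-3p and miR-484 below, the 305 reads of miR-451a, a red blood cell miRNA that is cut by Drosha and processed by Argonaute 2 in place of Dicer. These ranks and fold values use mouse entries alone, and end forms of miR-122-5p and miR-451a were not counted.

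**Figure D3:**
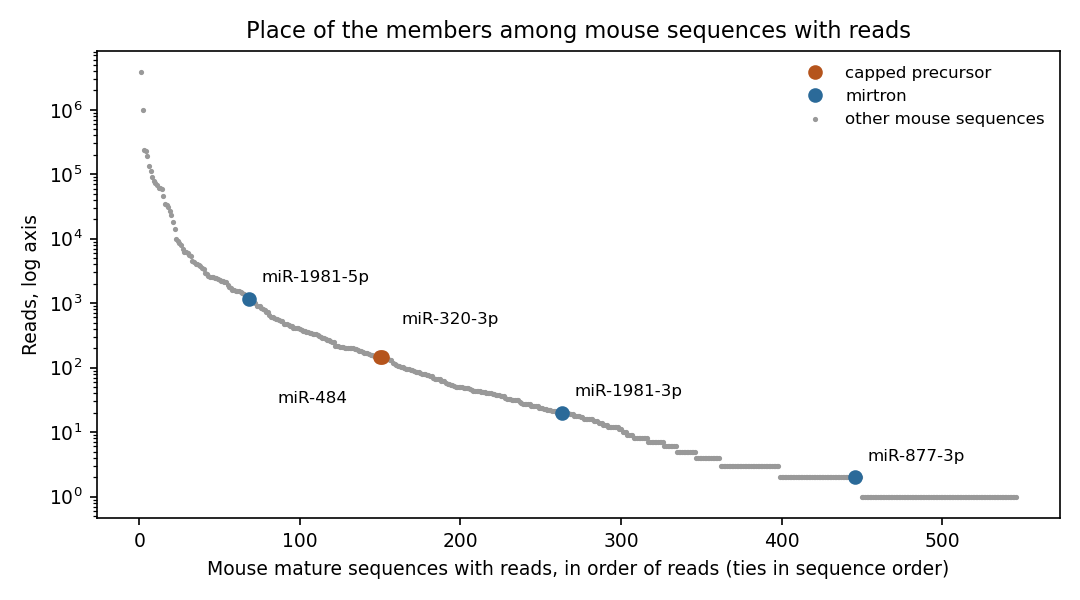
Each point is 1 of the 546 mouse sequences with reads, placed by its order on the x axis and by its reads on a log y axis. miR-1981-5p lies at rank 68, the points of miR-320-3p and miR-484 overlap at 145 reads, and miR-877-3p lies at 2 reads.

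Summed by class, the capped-precursor miRNAs held 290 reads, 0.00435% of mouse reads (0.00387 to 0.00488), and the mirtrons 1201, 0.0180% (0.0170 to 0.0191). The ratio of capped-precursor to mirtron reads was 0.241 (0.212 to 0.275). The capped-precursor sum was shared evenly by miR-320-3p and miR-484. In contrast, miR-1981-5p made up 98.2% of the mirtron reads. Without miR-1981 the capped precursors had 290 reads and the other 3 mirtrons 2, a ratio of 145 (39.8 to 1203), so the order of the classes rests on that 1 hairpin. Both classes together held 0.0224% of mouse reads (0.0213 to 0.0235). Adapter ligation favours some ends over others, and the ends of the sequences compared are not all alike. These are thus ratios of reads and not of molecules.

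Reads were then compared between the arms of each hairpin. On Mir1981 the 5p arm had 1179 reads and the 3p arm 20, a ratio of 58.9 (38.0 to 96.9), with 98.3% of reads on the 5p arm (97.4 to 98.98). On Mir320 the 3p arm had 145 reads and the 5p arm 0, with 100% of reads on the 3p arm (97.5 to 100). Its 145 reads are 48.3-fold the limit of 3 reads, a value that leaves out the counting error of the 145. miR-877 had 2 reads on its 3p arm and 0 on its 5p arm, too few for a ratio. For miR-1224 and miR-702 neither arm had a read, and for miR-484 the mouse list holds 1 mature sequence, so no ratio could be given.

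In the 2 hairpins for which a ratio could be given, the higher arm was thus 5p for miR-1981 and 3p for miR-320. Of the 120 mouse miRNAs with both arms listed and at least 100 reads in sum, 62 had more reads on 5p and 58 on 3p. Their higher arm held a median of 99.7% of the reads (quartiles 96.5 and 100), and 35 had no read on the other arm. The arm bias of miR-1981 was below that of 75 of these and above that of 44, and miR-320 is itself among the 35 with no read on the other arm. Both values lay within the range of the other mouse miRNAs.

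The table lists mature sequences of many species, and some of them equal a mouse arm with another end. These end forms were counted for miR-320, miR-484 and miR-877, and for no other member. For miR-320-3p the form 1 nt longer was the second most common.
Mouse entry, 145 reads: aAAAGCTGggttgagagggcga
1 nt longer, 97 reads: aAAAGCTGggttgagagggcgaa
2 nt shorter, 7 reads: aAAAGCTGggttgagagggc
Forms 4 nt shorter and 3 nt longer had 3 reads each. Of the 255 reads of miR-320-3p in all forms, 56.9% (50.5 to 63.0) were of the mouse entry, and 38.0% (32.1 to 44.3) were of the form 1 nt longer. The bases that follow in the mouse hairpin are A, so an A added after cutting cannot be told apart from a later cut. A further sequence, listed as human miR-320c, shares the first 19 nt with the mouse entry and then differs in its last base; it had 2 reads.

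For miR-484 the form listed besides the mouse entry was 1 nt shorter.
Mouse entry, 145 reads: tCAGGCTCagtcccctcccgat
1 nt shorter, 38 reads: tCAGGCTCagtcccctcccga
Of the 183 reads of miR-484 in both forms, 79.2% (72.6 to 84.9) were of the mouse entry. With end forms, miR-320-3p had 255 reads and miR-484 had 183, a ratio of 1.39 (1.15 to 1.69), so the tie at 145 reads was one of mouse entries alone. On both arms all listed forms with reads share the first base of the mouse entry, and with it the seed.

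**Figure D4:**
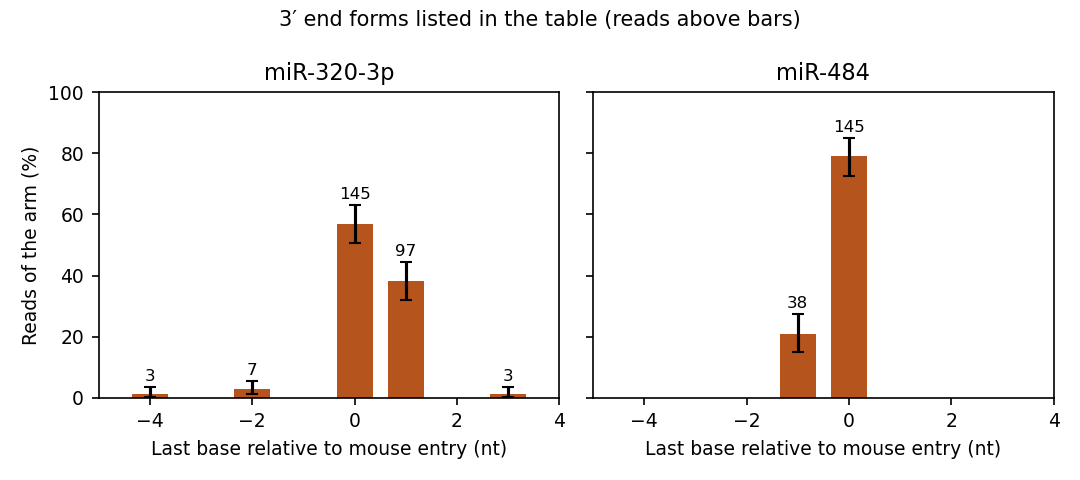
Bars give the percentage of the reads of an arm by the position of the last base relative to the mouse entry (x axis, nt), with exact 95% intervals and the reads above each bar; positions without a bar have no entry in the table. miR-320-3p spreads to the longer form with 97 reads and miR-484 to the shorter form with 38.

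miR-877-5p had 0 reads by its 20-nt mouse entry and 2 by an entry 4 nt longer, listed for gorilla: gTAGAGGAgatggcgcaggggaca. Entries 1 and 2 nt longer than the mouse one had 0. With these 2 reads each arm of miR-877 had 2, and the order of its arms was not resolved. The chance to see end forms differed between miRNAs, since the table holds 15 distinct sequences named miR-320 from 21 species and 4 named miR-484 from 15. It holds 2 named miR-1981, both from mouse. Other ends of miR-1981 could not be seen, and its 1179 and 20 reads are those of a single end each. With end forms the capped-precursor miRNAs had 438 reads and the mirtrons 1203, a ratio of 0.364 (0.326 to 0.407).

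In its sequence miR-1981-5p differed from most abundant miRNAs of the library. It is 24 nt long, a length reached by 156 of the 1963 mouse sequences (7.95%) and by 2 of the 72 with at least 1000 reads. The other of those 2 is miR-541-5p with 2581 reads. Among 5p arms that start with GT it came second to miR-145a-5p, a miRNA of smooth muscle and mesenchymal cells with 1902 reads, and ahead of miR-24-2-5p with 264. Neither trait is particular to miR-1981-5p among intron-ending hairpins. On the wider list given below, 17 of 21 5p sequences start with GT, and some other 5p arms are also 24 nt or longer. The first base of miR-1981-5p, G, is the first base of 4 of those 72 abundant sequences, while T is that of 42. The content of G and C had a median of 59.1% over the 3 capped-precursor sequences and 61.9% over the 8 mirtron sequences, against 52.2% over all mouse sequences. The 5 members with reads ranged from 52.4% (miR-1981-3p) to 63.6% (miR-484), against a median of 47.8% over all mouse sequences with reads. The 6 hairpins ranged from 53.7% to 65.1%, against a median of 50.8% over 2202 annotated mouse hairpins, of which the middle 90% span 32.3% to 67.7%.

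As a wider list, all annotated mouse hairpins with both ends within 5 nt of the ends of an intron on their strand were taken from the annotation. This gave 23 of 2202 hairpins, 22 of them with no difference at either end. The table held 44 mature sequences, from 21 of the 23 hairpins. It holds Mir1981, Mir877 and Mir1224, but not Mir702. Reads were found for 9 of the 44 sequences (20.5%), against 27.8% of all mouse sequences, and the median of the list was 0 reads. The list held 1222 reads, 0.0183% of mouse reads (0.0173 to 0.0194), and miR-1981-5p made up 96.5% of them.

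The 38 sequences of the list that are not members held 21 reads in all. The highest was miR-3102-3p, with 11 reads. miR-6944-3p, from the actin-binding drebrin gene Dbn1, and miR-6958-3p, from Dennd6b, had 3 reads each. miR-7068-3p from Cherp had 2, and miR-1982-3p, from the antizyme gene Oaz1, and miR-7088-3p, from Mst1, had 1 each. Reads were found for 6 of the 19 3p sequences and 0 of the 19 5p sequences, against 261 of 823 3p and 262 of 817 5p sequences over all mouse entries. At 1 to 11 reads these levels are close to the limit of 3 reads, and other hairpins of the list may be present below it.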

How the data were processed

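Adapters were ligated to the small RNA of total liver RNA, followed by PCR, size selection and single-read sequencing, per the labels' protocols, which mention no molecular identifiers. The deposited values are raw read counts of 1 cleaned library over mature miRNA entries of many species, per the file headers. Per the submitters' processing notes the build was mm10. How reads were matched to entries is not given in the sources used here. By title, the column matches Cre-miR122 replicate 2, and 0 columns had no sample.

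Entries with identical sequence had equal counts, so each of the 30721 distinct sequences was used once. Shares are of the 6661069 mouse reads. The 95% intervals are exact Clopper-Pearson for shares and exact binomial, given the sum of both counts, for ratios. An end form is another species' entry found in the mouse hairpin (GENCODE M21) with at least 15 nt of the member. The planned test of Cre-miR122 against Cre could not be run with 1 library. Calculations were tested on simulated data. The members and lists were chosen with earlier results of these data known. Named miRNAs are the members, those sharing a seed, neighbours in reads, the highest of the intron list, miR-451a, miR-148a-3p, miR-122-5p and miR-1a-3p, and the hepatocyte and striated muscle markers. Others named (miR-145a-5p, miR-24-2-5p, miR-541-5p, and the intron-list miRNAs with 1 or 2 reads) were chosen after their values were seen. Alternatives were other denominators, end forms, a minimum of 10 reads, leaving out each miRNA and other distances from intron ends. The software was SciPy 1.17.1 and NumPy 2.4.6 for statistics, pandas 2.3.3 for tables, matplotlib 3.10.9 for plots, and Python 3.11.15.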

Additional observations from a re-analysis of the deposited data

Results flagged for a closer look

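Reads of members were also present in data outside the mouse entries, above the limit of 3 reads that a count of 0 allows. For miR-320-3p, 110 reads were counted for 4 entries of other species that lie in the mouse hairpin with another last base. For miR-484, 38 reads were counted for 1 such entry. No control library was analysed, and the source of the end differences was not tested.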

How the results depend on the processing

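The capped-precursor and mirtron shares moved beyond their intervals, from 0.00435% and 0.0180%, with 4 denominators or countings. They were 0.00355% and 0.0147% of all sequences, 0.0103% and 0.0428% without miR-148a-3p, and 0.00544% and 0.0149% with entries of other species under the same miRNA number added to members and total. Without the 5 muscle markers, a denominator added after seeing the data, they were 0.00517% and 0.0214%. These moves follow from the reads each setting adds or removes. At a minimum of 10 reads neither share moved. Single members were rescaled by 0.816 (all sequences) and 2.37 (without miR-148a-3p), which moved 3 and 4 of the 5 with reads beyond their intervals.

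The ratio of capped-precursor to mirtron reads, 0.241, was 0.364 with end forms and 0.121 without miR-320 or without miR-484. It turned to 145 without miR-1981, which holds nearly all mirtron reads, and stayed inside its interval without miR-877. Leaving out miR-1224 or miR-702, which had 0 reads, could not change it. The miR-320 3p arm over the limit of 3 reads for its 5p arm was 48.3-fold, and 85-fold with end forms. The mouse-entry part of miR-320-3p kept to its interval. The number of members with reads (5, or 4 at 10 reads) stayed within 1.5 times. So did the number of intron-ending hairpins (23, or 22 and 29 within 0 and 10 nt). The arm ratio of miR-1981 and the mouse-entry part of miR-1981-5p could not change, because no other end form of miR-1981 is listed. The mouse-entry part of miR-484 could not change either, because its other form has the same number. Counts of 0 to 3 reads limit miR-877, miR-1224, miR-702 and most of the intron list. No paired analysis was possible because only Cre-miR122 replicate 2 had counts and no replicate number occurs in both groups.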
